A study of Mus musculus with 8 samples.

Results

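Cyclic nucleotide phosphodiesterases were followed in a series that profiled RNA of mouse brown adipose tissue by sequencing. The 10 genes described are Pde2a, Pde3a, Pde3b, Pde4a, Pde4b, Pde4d, Pde7a, Pde7b, Pde8a and Pde10a. They were chosen by symbol and found in the count table through the Ensembl identifiers of GRCm38, as 10 of 54385 gene identifiers. All 10 also passed the filter on low counts, which left 14553 genes. The knockout animals (cKO, 4 libraries) carry floxed Adcy3 alleles and a Cre recombinase under the adiponectin promoter (Adcy3-FL/FL/Adipoq-wt/cre), which removes the floxed part in cells that use that promoter. The controls (WT, 4 libraries) carry the same floxed alleles without the Cre (Adcy3-FL/FL/Adipoq-wt/wt), except that the genotype entry of WT replicate 4 does list it. All animals were C57BL/6N, 20 weeks old and on chow. The tissue is interscapular in the sample labels and inguinal in the design text, and the labels do not say that each library is a separate animal.

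Phosphodiesterases end cyclic nucleotide signals by cutting cyclic AMP or cyclic GMP to the inactive monophosphate. In brown fat, noradrenaline raises cyclic AMP through beta-adrenergic receptors and adenylyl cyclases such as the product of Adcy3, and phosphodiesterases set how high and how long that signal lasts. PDE3 and PDE4 enzymes are the forms best known from adipocytes. PDE3B there is activated by insulin signalling and restrains fat breakdown.

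Libraries held 10712795 to 32436907 estimated counts, of which the 10 genes took 0.0476% to 0.0707% (7573 to 19778 counts). Levels are given as CPM, the counts scaled to library size with TMM factors. The knocked-out gene separated the groups, with 18.0, 20.9, 25.3 and 21.5 CPM of Adcy3 in cKO replicates 1 to 4 and 112, 118, 61.7 and 118 CPM in WT replicates 1 to 4 (edgeR adjusted p = 0.000925). Markers of adipocytes in general and of brown fat were present in every library. Ucp1, Cidea, Adipoq, Plin1, Fabp4, Elovl3 and Ppargc1a summed to 9677 to 13612 CPM in cKO and 10806 to 12634 CPM in WT. Much of that sum was Fabp4, with 4594 to 7041 CPM in cKO and 5318 to 6375 CPM in WT. Ucp1 had 2341 to 4545 CPM in cKO and 2233 to 3012 CPM in WT. WT replicate 3 stood apart, with the lowest Adcy3 of the controls and the highest summed endothelial markers (740.2 CPM, against 452 to 548 CPM in cKO and 466 to 517 CPM in the other WT libraries). Skeletal muscle markers also varied widely, the sum of 12 genes running from 147 to 10679 CPM in cKO and from 40.1 to 8349 CPM in WT. In bulk tissue, fewer cells of a type and less RNA per cell cannot be told apart.

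Promoter stretches are shown for the cyclic AMP response element, a site bound by CREB, a transcription factor through which cyclic AMP acts on genes. RefSeq promoter windows of GRCm38.p6, from 250 bases before to 50 bases after a start site, were matched for 7 of the 10 genes (17 windows), and Pde3a, Pde3b and Pde7a were not matched. The full palindrome, TGACGTCA, was in 0 of the 17 windows and in 1.79% of all 32817 windows. Its 5-letter core, TGACG or CGTCA on the printed strand (one is the other read on the opposite strand, and every palindrome contains both), was in 4 of the 17 windows (23.5%), against 20.8% of all windows. The 4 windows belong to Pde8a, Pde4a, Pde4b and Pde2a. The lines below show the cores, in capitals, that lie before a start site and outside annotated exons, for Pde8a (chr7:81213155-81213211, plus strand) and for an internal start of Pde4a (chr9:21184025-21184081, plus strand).
Pde8a: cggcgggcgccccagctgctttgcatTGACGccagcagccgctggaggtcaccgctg
Pde4a: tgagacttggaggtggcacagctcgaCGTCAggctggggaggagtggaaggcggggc
These are matches of letters and say nothing of binding.

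Pde3b was the most abundant of the 10 genes in brown fat of both genotypes, whichever gene length was used, while the order of the genes behind it depended on that length. To compare genes, CPM was divided by the length of each gene's annotated exons (all transcripts merged) in kilobases. Pde3b then averaged 36.7 ± 4.58 CPM per kb in cKO and 32.1 ± 7.47 CPM per kb in WT (SD, n = 4 each). It was first in each of the 8 libraries and its range met that of no other member in either group. Pde8a, which encodes a cyclic AMP-specific enzyme of high affinity, came second on this length with 14.4 ± 1.47 CPM per kb in cKO and 13.4 ± 1.80 CPM per kb in WT. Pde2a, whose enzyme cuts both nucleotides and is stimulated by cyclic GMP, followed with 13.0 ± 1.89 CPM per kb in cKO and 11.8 ± 0.558 CPM per kb in WT. The ranges of Pde8a and Pde2a overlapped in both groups, so their order is not settled, and both lay above Pde4a without overlap on this length.

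On the same length, below these 3 genes came the PDE4 genes Pde4a (7.41 ± 2.07 CPM per kb in cKO and 6.62 ± 1.79 in WT) and Pde4d (5.44 ± 1.60 CPM per kb in cKO and 4.77 ± 1.95 in WT), which overlapped each other. Pde7b reached 2.52 ± 1.19 CPM per kb in cKO and 1.39 ± 0.541 in WT. Its range stayed below that of Pde4d in WT and met it in cKO. Pde3a (1.34 ± 0.487 CPM per kb in cKO, 0.933 ± 0.232 in WT) and Pde7a (1.20 ± 0.264 CPM per kb in cKO, 1.19 ± 0.157 in WT) overlapped, and they were the only members whose order by mean differed between the groups. Pde4b (0.757 ± 0.377 CPM per kb in cKO, 0.593 ± 0.192 in WT) and Pde10a (0.292 ± 0.0220 CPM per kb in cKO, 0.311 ± 0.0369 in WT) closed the list, with Pde10a below Pde4b in every library.

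Expressed as shares of the summed level per length, Pde3b held 40.7, 44.2, 49.9 and 42.4% in cKO replicates 1 to 4 and 49.4, 40.4, 39.1 and 45.1% in WT replicates 1 to 4. The groups overlapped, with means of 44.3% ± 4.02 in cKO and 43.5% ± 4.72 in WT. Pde8a held 17.4% ± 1.60 in cKO and 18.4% ± 1.59 in WT, and Pde2a 15.6% ± 1.58 in cKO and 16.5% ± 3.50 in WT. The PDE4 genes together held 16.3% ± 3.75 in cKO and 16.3% ± 3.57 in WT. PDE7 genes held 4.45% ± 0.846 in cKO and 3.52% ± 0.480 in WT. Each member's share overlapped between the groups. Genes of the families specific for cyclic AMP (PDE4, PDE7 and PDE8) held 38.1% ± 5.30 in cKO and 38.3% ± 3.26 in WT, the remainder being PDE2, PDE3 and PDE10 genes, whose enzymes can cut both nucleotides.

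These proportions rest on the length used, except that Pde3b was first in all 8 libraries under each of 4 choices. Its share was 31.9% in cKO and 32.4% in WT with the median length of coding transcripts, and 50.5% in cKO and 50.4% in WT with no division by length. Pde4d came second with the median length of coding transcripts (18.2% in cKO and 18.4% in WT), ahead of Pde2a (12.4% in cKO and 13.6% in WT), Pde4a (11.7% in cKO and 12.6% in WT) and Pde8a (9.54% in cKO and 10.6% in WT). With the longest transcript, and also with no division, Pde2a came second. The PDE4 genes together then ran from 19.5% in cKO and 19.7% in WT with no division to 32.0% in cKO and 32.9% in WT with the median length, and the families specific for cyclic AMP from 34.3% in cKO and 33.8% in WT to 54.1% in cKO and 52.4% in WT. PDE7 genes held 12.6% in cKO and 8.95% in WT with the median length. The place of Pde8a and of the PDE4 genes in the order is therefore not settled by these counts.

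**Figure D1:**
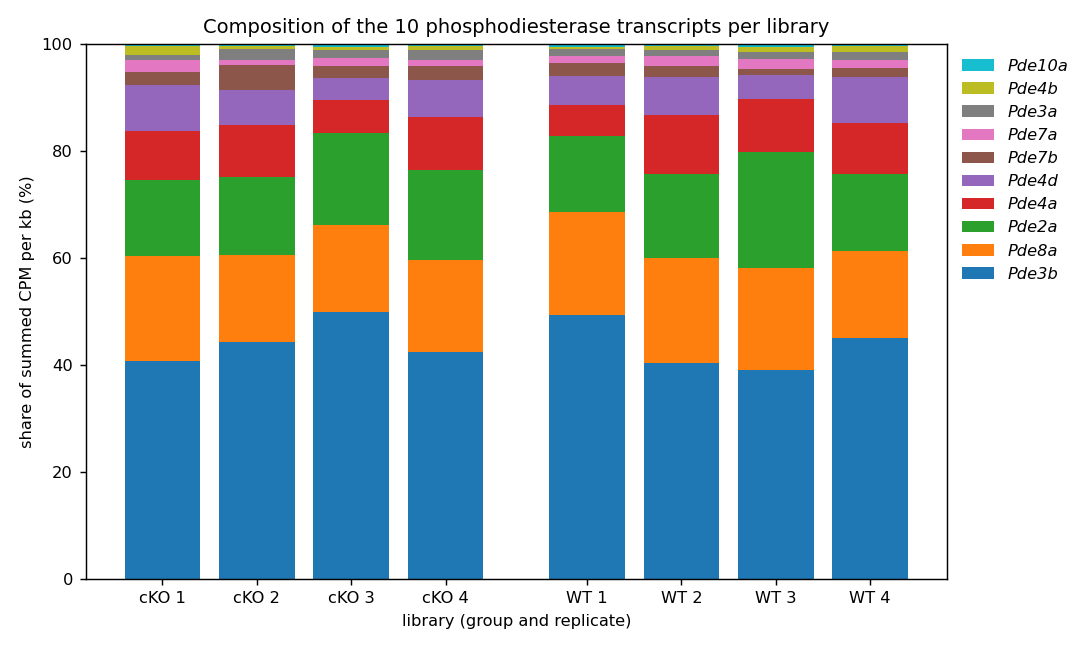
Stacked bars give the share (%) of each of the 10 genes in their summed CPM per kilobase, 1 bar per library, cKO libraries on the left and WT libraries on the right. Pde3b fills 39.1% to 49.9% of every bar, and Pde8a and Pde2a come next in all 8 with the merged exon length used here, though not with the other 3 choices.

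The summed level of the 10 genes was 74.5, 93.0, 75.1 and 89.4 CPM per kb in cKO replicates 1 to 4 and 77.7, 74.1, 57.4 and 83.1 CPM per kb in WT replicates 1 to 4. The groups overlapped, but cKO replicates 2 and 4 lay above all controls, and WT replicates 2 and 3 lay below all cKO libraries. The lowest of all was WT replicate 3. The means were 83.0 ± 9.58 CPM per kb in cKO and 73.1 ± 11.1 in WT, a ratio of 1.14. Part of that ratio comes with the scaling, as TMM factors were 0.9366 to 0.9857 in cKO and 0.9934 to 1.096 in WT. As a plain share of all counts, not divided by length, the means were 0.0636% in cKO and 0.0595% in WT, a ratio of 1.07. The members made up 91.6% ± 0.410 in cKO and 90.6% ± 1.43 in WT of the summed level of all 21 phosphodiesterase genes listed, and the 11 others the rest.

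No member passed the test between genotypes. Of the 10, edgeR called 0 at an adjusted p of 0.05, against 0.0687% of all genes tested (10 genes), and 0 had an unadjusted p under 0.05, against 5.60%. DESeq2, limma-voom and limma-voom with library quality weights also called 0 of them, against 0.316%, 0.0687% and 0.0893% of all genes. They gave an unadjusted p under 0.05 to Pde7b and, with quality weights, to Pde3a. No member separated the groups without overlap, as 3.50% of all genes did. The log2 fold changes (cKO over WT) were positive for 9 of 10, against 51.8% of all genes, with a median of 0.18, against 0.01. That count fell to 7 without WT replicate 3, without cKO replicate 1 or with the muscle marker sum as a covariate, with medians of 0.08, 0.16 and 0.10. Of the markers of other cells, 12 of 12 for skeletal muscle had a positive log2 fold change (median 0.61). For endothelium 6 of 6 had a negative one (median -0.11). Neither list held a gene called by edgeR, and the 95% interval of the muscle marker Myh4 (0.62) ran from -3.48 to 4.71. Signs were mixed for mural and smooth muscle (3 positive, 4 negative), immune (3 and 4), Schwann cell and nerve (3 and 3) and fibroblast markers (3 and 2). Intervals below are at 95%.

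**Figure D2:**
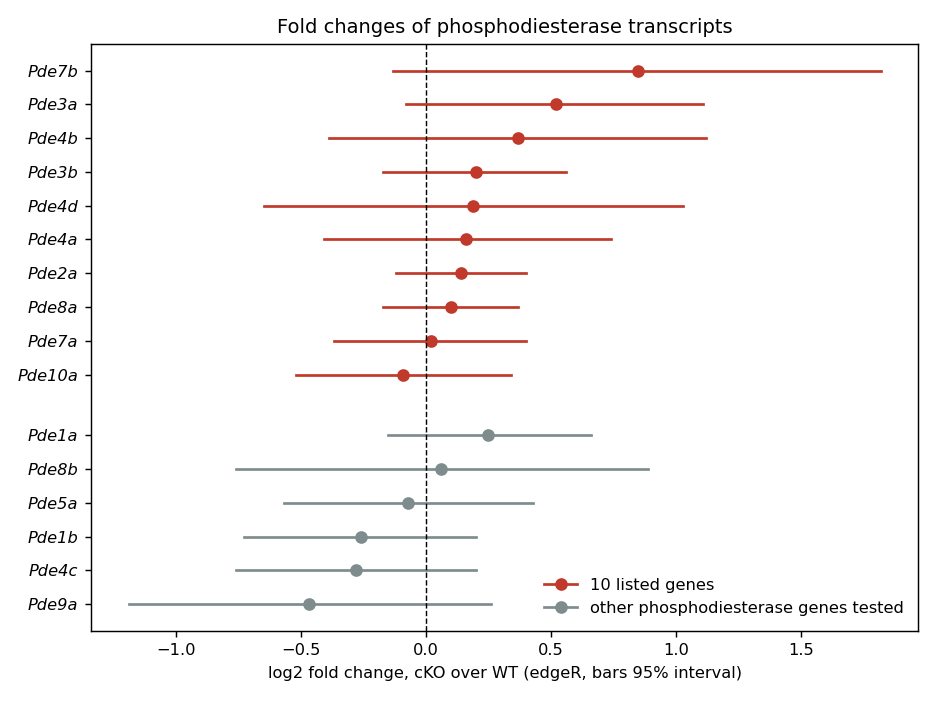
Points are edgeR log2 fold changes of cKO over WT, and bars are 95% intervals, for the 10 listed genes above and the 6 other phosphodiesterase genes tested below. Every interval crosses 0; those of Pde2a and Pde8a are the narrowest, and that of Pde7b the widest.

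Among the genes of the PDE3 family, whose enzymes bind both nucleotides and are slowed by cyclic GMP, Pde3b (ENSMUSG00000030671, chromosome 7, 114415281 to 114539251, plus strand) had 276, 375, 342 and 346 CPM in cKO replicates 1 to 4 and 349.9, 273, 204 and 342 CPM in WT replicates 1 to 4. The groups overlapped, with 1 cKO library above all controls and WT replicate 3 lowest of all. The log2 fold change was 0.20 (interval -0.17 to 0.56, adjusted p = 0.907 by edgeR), so a fold between 0.890 and 1.47 is compatible with these libraries. It was 0.06 without WT replicate 3. Counts of Pde3b were 3754 or more in every library, so counting error is small beside the spread between libraries.

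Pde3a (ENSMUSG00000041741, chromosome 6, 141249269 to 141507448, plus strand), the PDE3 form best known from heart, vessels and oocytes, had 10.1, 24.1, 14.0 and 20.0 CPM in cKO and 12.0, 10.5, 9.09 and 15.9 CPM in WT. Replicates 2 and 4 of cKO lay above all controls, and the other 2 lay among them. The log2 fold change was 0.52 (interval -0.08 to 1.11, adjusted p = 0.890 by edgeR), or a fold of 0.945 to 2.16. It ran from 0.30 without cKO replicate 2 to 0.71 without cKO replicate 1, and its sign held under 20 alternatives. Some edgeR alternatives gave it an unadjusted p under 0.05, such as 0.00270 without a count filter, where the adjusted p was 0.360. Pde3a made up 3.44% ± 0.882 in cKO and 2.85% ± 0.376 in WT of the PDE3 level per length, and 6.19% of its 30-base sequences are shared with other genes, mostly with an antisense gene.

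Pde2a (ENSMUSG00000110195, chromosome 7, 101421691 to 101512827, plus strand) had 64.4, 83.0, 79.5 and 92.4 CPM in cKO and 68.5, 71.1, 76.5 and 73.8 CPM in WT. The 4 controls lay close together, and of the cKO libraries 3 were above all of them and 1 below. The log2 fold change was 0.14 (interval -0.12 to 0.40, adjusted p = 0.906 by edgeR). A predicted protein-coding gene on the same strand, Gm45837, covers 64.3% of the exon bases of Pde2a, so reads cannot be placed between them with certainty. Gm45837 was given 0 counts in 5 libraries, 5.33 CPM in cKO replicate 3, 5.41 CPM in WT replicate 1 and 34.6 CPM in WT replicate 3. With the pair summed, the level was 81.2 ± 11.9 CPM in cKO and 82.5 ± 19.1 CPM in WT, and the log2 fold change was -0.02 (interval -0.37 to 0.33, adjusted p = 0.991 by edgeR). The sign for Pde2a therefore turned with how these reads were divided.

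Pde10a (ENSMUSG00000023868, chromosome 17, 8525372 to 8986648, plus strand), known chiefly as a striatal enzyme, was the least abundant per length of merged exons, with 3.66, 3.89, 4.06 and 3.41 CPM in cKO and 3.89, 4.00, 4.62 and 3.47 CPM in WT. All 8 values fell within a narrow band at 39 counts or more per library. It was the only member with a negative log2 fold change, -0.09 (interval -0.52 to 0.34, adjusted p = 0.974 by edgeR).

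**Figure D3:**
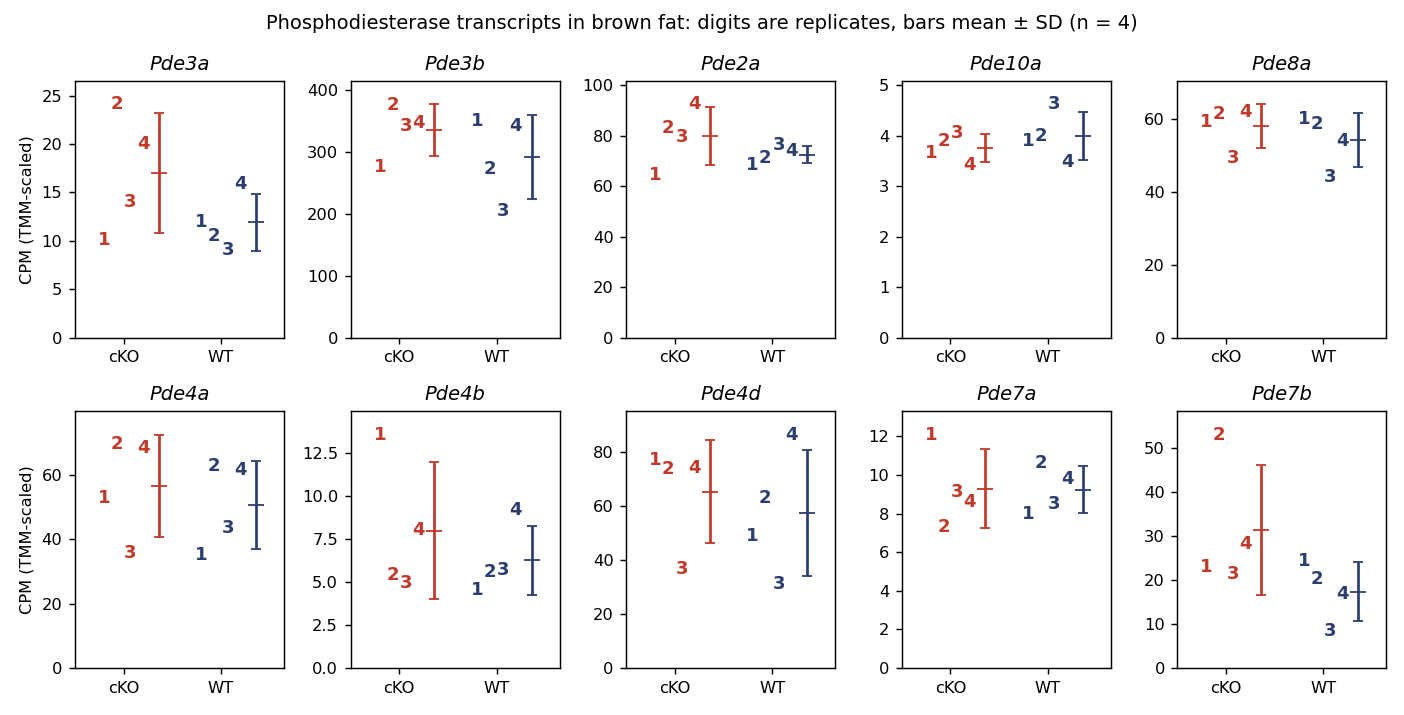
CPM of each of the 10 genes in every library, cKO left of WT, on linear axes that start at 0; digits are replicate numbers, and the bars beside them are mean ± SD (n = 4 each). In every panel the groups overlap, and WT replicate 3 is the lowest library for Pde3a, Pde3b, Pde4d, Pde7b and Pde8a.

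Of the genes for enzymes specific for cyclic AMP, Pde8a (ENSMUSG00000025584, chromosome 7, 81213596 to 81334533, plus strand), whose promoter stretch is printed above, varied little between libraries. It had 59.3, 61.5, 49.3 and 62.1 CPM in cKO and 60.1, 58.7, 44.0 and 54.1 CPM in WT, with the 2 lowest values in replicate 3 of either group. The log2 fold change was 0.10 (interval -0.17 to 0.37, adjusted p = 0.945 by edgeR), a fold between 0.887 and 1.29.

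Pde7b (ENSMUSG00000019990, chromosome 10, 20398004 to 20725078, minus strand) had the largest fold change and, over all 8 libraries, the widest range, its highest value being 6.39 times its lowest. It had 22.9, 53.0, 21.3 and 28.2 CPM in cKO and 24.2, 20.1, 8.29 and 16.8 CPM in WT. The extremes were cKO replicate 2 and WT replicate 3, 2 cKO libraries lay above all controls, and all 4 lay above the control median. The log2 fold change was 0.85 (interval -0.13 to 1.82, adjusted p = 0.889 by edgeR, unadjusted p = 0.0803). It ran from 0.47 without cKO replicate 2 to 1.06 without WT replicate 1, and its sign held under 20 alternatives. Pde7b supplied 65.6% ± 12.2 in cKO and 52.2% ± 11.3 in WT of the PDE7 level per length of merged exons. Its part was larger with the median coding transcript, at 11.2 of 12.6% of the members' sum in cKO and 7.40 of 8.95% in WT. Pde7a (ENSMUSG00000069094, chromosome 3, 19223108 to 19311322, minus strand), the form best known from T cells, supplied the rest, at 12.1, 7.29, 9.14 and 8.61 CPM in cKO and 7.99, 10.6, 8.49 and 9.81 CPM in WT. Its values overlapped fully, with a log2 fold change of 0.02 (interval -0.37 to 0.40, adjusted p = 0.995 by edgeR), whose sign turned under 6 of 20 alternatives.

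PDE4 genes, which encode the rolipram-sensitive enzymes, each have several promoters and give long and short forms that counts per gene do not separate. GENCODE M21 lists 20 transcripts for Pde4d, 13 for Pde4b and 5 for Pde4a. Pde4a (ENSMUSG00000032177, chromosome 9, 21165714 to 21213248, plus strand) had 52.8, 69.7, 35.9 and 68.5 CPM in cKO and 35.0, 62.9, 43.5 and 61.5 CPM in WT. Pde4d (ENSMUSG00000021699, chromosome 13, 108449948 to 109953461, plus strand) had 76.8, 73.5, 36.6 and 74.2 CPM in cKO and 48.9, 62.9, 30.9 and 86.4 CPM in WT. For both genes the 3 lowest libraries were cKO replicate 3 and WT replicates 1 and 3, and each group held both high and low libraries. The log2 fold changes were 0.16 (interval -0.41 to 0.74, adjusted p = 0.961 by edgeR) for Pde4a, which ran from 0.02 without WT replicate 1 to 0.33 without cKO replicate 3, and 0.19 (interval -0.65 to 1.03, adjusted p = 0.970 by edgeR) for Pde4d, which was -0.01 without WT replicate 3.

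Pde4b (ENSMUSG00000028525, chromosome 4, 102087543 to 102607259, plus strand), known as the PDE4 form of immune cells and as a gene induced by cyclic AMP, had 13.6, 5.39, 4.95 and 8.02 CPM in cKO and 4.57, 5.57, 5.71 and 9.21 CPM in WT. A single library, cKO replicate 1, was above all controls. The log2 fold change was 0.37 (interval -0.39 to 1.12, adjusted p = 0.920 by edgeR), and it was -0.02 without that library. Within the PDE4 level per length of merged exons, Pde4a supplied 54.7% ± 4.96 in cKO and 55.9% ± 7.08 in WT, Pde4d 39.7% ± 2.91 in cKO and 39.1% ± 7.39 in WT, and Pde4b 5.64% ± 2.36 in cKO and 5.03% ± 1.01 in WT. The order of the first 2 turned with the other lengths, Pde4a supplying 37.1% in cKO and 38.4% in WT and Pde4d 56.5% in cKO and 55.8% in WT with the median coding transcript.

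Libraries low in skeletal muscle transcripts were also low in Pde4a and Pde4d. The 12 muscle markers, among them the myosins Myh1, Myh2 and Myh4, summed to 10679, 3082, 147 and 2336 CPM in cKO replicates 1 to 4 and 40.1, 1974, 382 and 8349 CPM in WT replicates 1 to 4. The 3 libraries lowest in muscle markers are the 3 lowest for both Pde4a and Pde4d. In an edgeR fit with group and the log2 muscle sum as terms, added after these values were seen, the slopes per doubling of the muscle sum were 0.12 for Pde4a (interval 0.05 to 0.19, unadjusted p = 0.00189, adjusted p = 0.0719), 0.15 for Pde4b (0.06 to 0.24, unadjusted p = 0.00362, adjusted p = 0.118) and 0.14 for Pde4d (0.05 to 0.23, unadjusted p = 0.00745, adjusted p = 0.184). None of the 3 passed the threshold, which 2.22% of all genes did (323 genes). The slopes of the other 7 members ran from -0.02 (Pde10a) to 0.05 (Pde7a), all with intervals across 0. The fit was repeated without the 2 libraries farthest from the median muscle sum, WT replicate 1 and cKO replicate 3. The slope was then 0.05 for Pde4a (unadjusted p = 0.426), 0.22 for Pde4b (unadjusted p = 0.0308) and 0.27 for Pde4d (unadjusted p = 0.00118, edgeR adjusted p = 0.0528). That of Pde4a thus rested on those 2 libraries. Of the libraries left, WT replicate 3 was by far the lowest in muscle markers and the lowest for Pde4d (30.9 CPM), and no fit left it out as well. In cKO replicates 1, 2 and 4 Pde4d was flat, at 76.8, 73.5 and 74.2 CPM. Pde4b was highest in cKO replicate 1 (13.6 CPM) and WT replicate 4 (9.21 CPM), the 2 libraries highest in muscle markers. In the fit with the muscle term the genotype log2 fold changes were 0.01 for Pde4a, 0.12 for Pde4b and -0.01 for Pde4d.

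**Figure D4:**
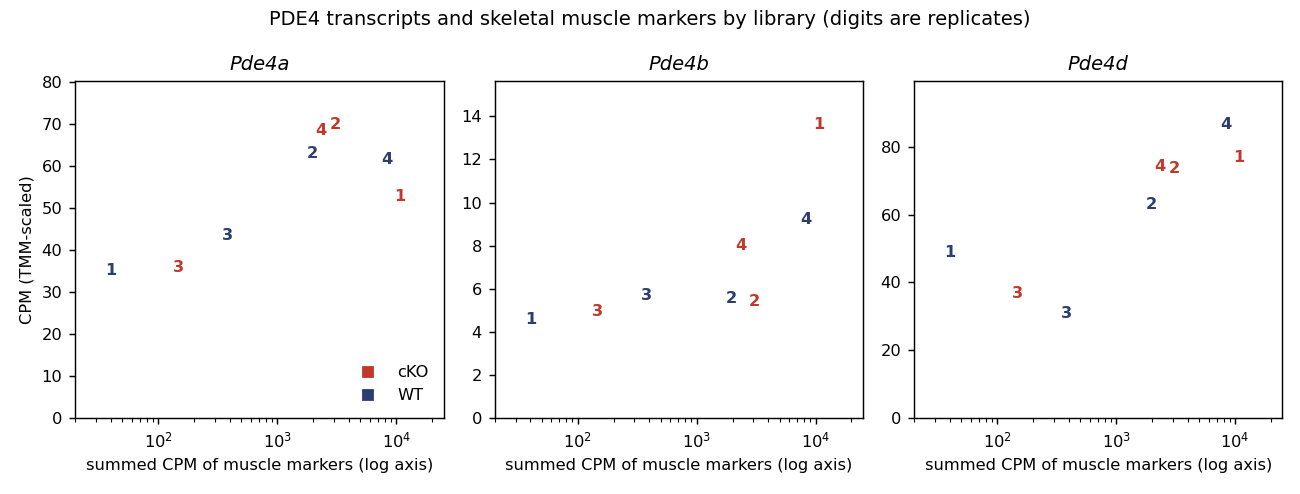
CPM of Pde4a, Pde4b and Pde4d (linear axes from 0) against the summed CPM of 12 skeletal muscle markers (log axis), 1 digit per library giving its replicate number, cKO in red and WT in blue. The 3 libraries on the left, cKO 3, WT 1 and WT 3, are the lowest for Pde4a and Pde4d, and both genotypes lie on either side.

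Of the 11 other phosphodiesterase genes, 6 passed the filter, and edgeR called 0 of them, with 0 at an unadjusted p under 0.05 and log2 fold changes positive for 2 and negative for 4 (median -0.17). Pde1a, for a calcium- and calmodulin-stimulated enzyme, was the most abundant of them per length, at 4.25 ± 0.904 CPM per kb in cKO and 3.57 ± 0.774 in WT, above 5 of the 10 members. It had 20.1, 31.0, 21.8 and 29.5 CPM in cKO and 21.5, 23.8, 14.9 and 25.6 CPM in WT (log2 fold change 0.25, interval -0.15 to 0.66). Pde4c had 8.38 ± 1.73 CPM in cKO and 10.2 ± 2.96 CPM in WT (log2 fold change -0.28). Pde1b had 4.09 ± 0.903 CPM in cKO and 4.90 ± 0.526 CPM in WT (-0.26). Of the genes for enzymes specific for cyclic GMP, Pde5a had 3.54 ± 0.574 CPM in cKO and 3.70 ± 0.778 CPM in WT (-0.07), and Pde9a 1.27 ± 0.215 CPM in cKO and 1.76 ± 0.565 CPM in WT (-0.47, interval -1.19 to 0.26). Pde8b had 1.18 ± 0.478 CPM in cKO and 1.12 ± 0.255 CPM in WT (0.06). The remaining 5 did not pass the filter: Pde1c held 46 counts in cKO and 34 in WT over the group, Pde11a 30 and 38, Pde6b 13 and 11, Pde6a 3 and 1, and Pde6c 0 and 2. A group total of 0 counts allows up to 3, a limit that Pde6a and Pde6c, genes of photoreceptors, did not exceed in either group.

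Profiles over the 8 libraries were compared by the root mean square difference of centred log2 CPM among genes with a mean of at least 1 CPM. Nearest to Pde3b (log2 SD 0.29) were Acadsb (0.04), Maob (0.05) and Rnf24 (0.06). Acadsb encodes an acyl-CoA dehydrogenase of branched-chain substrates and Maob a monoamine oxidase. Nearest to Pde2a (log2 SD 0.16) were Taf8, Zfp182 and Psmb2 (0.06 each), and to Pde4d (log2 SD 0.54) Rhobtb3 (0.15), Mfsd7a (0.16) and AC098880.2 (0.18). Pde7b, the member of widest range (log2 SD 0.74), was nearest to Gm29237 (0.21), Gm47798 (0.26) and Zfp970 (0.28). These are the closest of all genes compared, over only 8 libraries, so some close profiles arise by selection alone. Shared regulation was not tested.

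In the lists of genes around the phosphodiesterases, counts are to be read against 0.0687% of all genes called and 5.60% with an unadjusted p under 0.05. In the list of cyclic AMP production and response, edgeR called 1 of 30 tested members, and 1 had an unadjusted p under 0.05. Both counts are Adcy3, the knocked-out gene itself, lower in cKO, and no other member of the list met either threshold. The median log2 fold change was 0.01, against 0.01 for all genes. Of 15 partners and regulators of phosphodiesterases, such as anchoring proteins and arrestins, edgeR called 0, with 0 at an unadjusted p under 0.05 and a median of -0.01. Cav1, the caveolar coat protein found with PDE3B, had 678 ± 60.1 CPM in cKO and 626 ± 37.7 CPM in WT, and Ywhag, a 14-3-3 protein, 867 ± 38.8 CPM in cKO and 801 ± 122 CPM in WT. Of 9 insulin signalling genes, edgeR called 0, with 0 at an unadjusted p under 0.05 and a median of 0.12. Their log2 fold changes were positive for 8 and negative for 1, Akt2. Akt2, the kinase upstream of PDE3B in adipocytes, had 414, 343, 325 and 331 CPM in cKO and 419, 435, 419 and 388 CPM in WT, where cKO replicate 1 alone reached the control range (log2 fold change -0.23, interval -0.48 to 0.01, adjusted p = 0.886 by edgeR). Pik3r1, a regulatory subunit of phosphoinositide 3-kinase, had 147 ± 15.0 CPM in cKO and 137 ± 39.5 CPM in WT.

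Of 13 cyclic AMP-inducible genes tested, edgeR called 0, with 3 at an unadjusted p under 0.05 (5.60% of all genes had one) and a median of -0.09. Their log2 fold changes, from -0.39 to 1.29, were positive for 6 and negative for 7. Nr4a2, an orphan nuclear receptor, had 11.0, 22.0, 16.5 and 17.8 CPM in cKO and 10.1, 11.3, 7.60 and 12.5 CPM in WT (log2 fold change 0.70, interval 0.24 to 1.16, adjusted p = 0.805 by edgeR). Its 3 highest libraries were cKO, and cKO replicate 1 lay among the controls. Pck1, of glyceroneogenesis, had 2380 ± 244 CPM in cKO and 2646 ± 569.9 CPM in WT, and Dio2, which activates thyroid hormone, 162 ± 55.1 CPM in cKO and 100.4 ± 34.1 CPM in WT. Of 8 genes of cyclic GMP production and response, edgeR called 0, with 1 at an unadjusted p under 0.05 (again against 5.60%) and a median of -0.13. That gene was Npr1, a natriuretic peptide receptor that makes cyclic GMP, with 51.3, 46.6, 55.4 and 57.8 CPM in cKO and 59.3, 56.4, 78.8 and 61.1 CPM in WT (edgeR adjusted p = 0.884), while Npr3, the clearance receptor, had 79.2 ± 32.6 CPM in cKO and 67.6 ± 6.04 CPM in WT.

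Summed markers of the other cell types overlapped between the genotypes. Endothelial markers summed to 496 ± 39.5 CPM in cKO and 549 ± 129 CPM in WT, with 0 of 6 called by edgeR and Tie1 at an unadjusted p under 0.05. Mural and smooth muscle markers summed to 492 ± 52.7 CPM in cKO and 494 ± 77.5 CPM in WT, immune markers to 47.3 ± 14.2 CPM in cKO and 51.1 ± 12.2 CPM in WT, Schwann cell and nerve markers to 81.1 ± 13.0 CPM in cKO and 84.3 ± 27.0 CPM in WT, and fibroblast markers to 277 ± 75.3 CPM in cKO and 268 ± 21.3 CPM in WT. No marker of these lists was at 0 in any library. WT replicate 3, lowest for Pde3b, Pde7b and Pde8a, was highest for the endothelial, mural and immune sums. The part of these cells in the phosphodiesterase values was not tested.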

How the data were processed

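RNA from 8 libraries was measured by paired-end sequencing (NEBNext Ultra II, per the labels' protocols). The authors deposited 1 table of estimated counts per Ensembl gene, not scaled between libraries. StringTie, Salmon and edgeR, without versions, and build GRCm38 are named in the submitters' processing notes. Which annotation release, strand setting or filters were used is not given in the sources used here. GENCODE M21 named 54131 of 54385 identifiers (99.5%).

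Estimated counts were rounded, filtered with filterByExpr, scaled by TMM and tested with edgeR 4.0.16 (robust quasi-likelihood, R 4.3.3), group as the only term, with Benjamini-Hochberg adjustment over all 14553 genes at 0.05. Libraries were grouped by title. Alternatives used DESeq2 1.42.0, limma 3.58.1, other filters and scalings, and libraries left out. Lengths are unions of annotated exons, and errors after ± are SDs. Sums and shares over members carry no test. The limit behind a count of 0 covers counting error only, and p-values measure the spread between libraries, which may be technical. No libraries of 1 group agreed within sampling noise (smallest chi-square per degree of freedom 14.5).

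The members and gene lists were chosen with earlier results of these data known. The text names all listed phosphodiesterase genes, Adcy3, and from each other list its called genes or else the 2 most abundant and the 1 with the smallest p, and the 3 nearest profiles of 4 members. For cell type markers only sums and counts of signs are given, with Tie1, Myh4, Fabp4 and Ucp1. The edgeR script was checked on simulated counts with known changes.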

Additional observations from a re-analysis of the deposited data

Results flagged for a closer look

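In 66 groups of 4 values, 8 held a library far from the other 3, a rule that chance meets in about 1 group in 20. Pde4d was low in cKO replicate 3 (36.6 CPM, against 73.5 to 76.8 CPM in the other cKO libraries). Adcy3 was low in WT replicate 3 (61.7 CPM, against 112 to 118 CPM in the other WT libraries), the library in which the share of Pde2a was high (21.7%, against 14.3% to 15.6%). The share of Pde7b was high in cKO replicate 2 (4.58%, against 2.27% to 2.53%). Pde5a was high in cKO replicate 2 (4.39 CPM, against 3.17 to 3.32 CPM) and Pde11a in WT replicate 1 (0.622 CPM, against 0.357 to 0.397 CPM). Pde6a in WT replicate 3 (0.0497 CPM) and Pde6c in WT replicate 2 (0.143 CPM) stood out only because the other WT libraries held 0 counts, and they rest on 1 and 2 counts.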

How the results depend on the processing

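Under 20 alternatives, 0 members were called, as in the main analysis. Genes called over the whole table numbered 10, and 46 with the DESeq2 Wald test, 93 without a count filter, and 1 when WT replicate 4 counted as cKO, as its genotype entry has it. In that fit the log2 change of Adcy3 was -1.26 (adjusted p = 0.747 by edgeR). The moved library had 118 CPM of Adcy3, against 18.0 to 25.3 CPM in the libraries titled cKO. With a replicate block 7 genes were called and Adcy3, at -2.23, was not (edgeR adjusted p = 0.225). Same-numbered libraries did not deviate together (correlations of -0.464, 0.035, 0.409 and 0.0016), so the numbers were not taken as pairs.

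Signs turned for Pde2a (-0.02 when summed with Gm45837), Pde4b (-0.02 to 0.62 with 1 library left out), Pde4d (-0.01 to 0.46 with 1 left out and -0.01 with the muscle sum as a covariate) and Pde7a (-0.13 to 0.11 with 1 left out, -0.10 with quality-weighted limma-voom, -0.00 without a count filter and -0.04 with the muscle sum); the cause was not tested. The summed level was 124 CPM per kb in cKO and 108 in WT with the longest transcript as length, 161 and 137 with the median coding transcript, and, undivided by length, 664 CPM in cKO and 576 CPM in WT. The share of Pde3b was then 31.9% in cKO and 32.4% in WT with the median coding transcript, and 50.5% in cKO and 50.4% in WT undivided, by construction. Pde10a and Pde4b, at 39 and 54 counts in their shallowest library, are limited most by depth.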
